A study of Mus musculus with 4 samples.

Results

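The interleukin 6 family is described here through 9 of its genes, the cytokine genes Il6, Lif, Il11, Clcf1 and Osm and the receptor genes Il6st, Il6ra, Lifr and Osmr, in mouse thymospheres. They are 9 of 21154 genes that could be named on the array, and 11 of its 55681 probes belong to them. All 9 had a probe. Thymospheres are floating colonies that dissociated thymus cells form in dishes to which they cannot attach, and the labels derive them from stem cells of the thymic epithelium. The arrays compared adult spheres, grown from the thymus of C57Bl6/N mice aged 5 to 6 weeks, with embryonic spheres, grown from the thymus of C57Bl6/N embryos of day 14.5. Both kinds grew for 7 days in a medium with B27, hydrocortisone, insulin, EGF and basic FGF. Each group had 2 samples and each sample its own 1-colour array. The number of animals behind a sample, and which replicates are biological and which technical, are not given in the sources used here, so the p-values cover the spread between the arrays alone, and that spread may be technical. The members were selected on their place in the pathway and on the adult-embryonic difference of their signal on these same arrays, so their values are given as a description, without a test.

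Interleukin 6 family cytokines share the receptor subunit gp130, the product of Il6st. Each cytokine adds a subunit of its own: IL-6 binds the IL-6 receptor encoded by Il6ra, IL-11 its own alpha receptor, LIF the LIF receptor encoded by Lifr, and oncostatin M, the product of Osm, the receptor encoded by Osmr. Cardiotrophin-like cytokine, the product of Clcf1, signals through the CNTF receptor, gp130 and the LIF receptor. The bound receptors activate JAK kinases and the transcription factor STAT3, and SOCS3 shuts the signal off. In mice, excess LIF or oncostatin M shrinks the thymus.

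RefSeq promoter windows (GRCm38.p6, 250 bases before to 50 after the annotated start) were matched for 7 of the 9 members. The windows of the 3 cytokine genes that stood higher in adult spheres and had a match are shown because the signal-responsive letters searched for occur in them, and the window of Il6st because it held none of them. The core TATAAA of the TATA box, which directs polymerase to the start, was searched on both strands. So were GGNNTTTCC for NF-kappaB, TTCNNNGAA for STAT, TTGCNNAA for C/EBP and, for the Fos and Jun dimer AP-1, the letters TGANTCA. Matches are in capitals. The windows lie at chr5:30012864-30013163 on the plus strand for Il6, chr11:4257318-4257617 on the plus strand for Lif, chr7:4778092-4778391 on the minus strand for Il11 and chr13:112463820-112464119 on the plus strand for Il6st.
Il6: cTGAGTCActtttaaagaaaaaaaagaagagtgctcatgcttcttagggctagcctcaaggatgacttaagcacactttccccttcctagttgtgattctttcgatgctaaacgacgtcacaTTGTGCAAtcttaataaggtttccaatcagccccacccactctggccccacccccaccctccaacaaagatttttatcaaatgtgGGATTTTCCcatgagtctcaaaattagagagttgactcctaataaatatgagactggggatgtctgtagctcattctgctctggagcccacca
Lif: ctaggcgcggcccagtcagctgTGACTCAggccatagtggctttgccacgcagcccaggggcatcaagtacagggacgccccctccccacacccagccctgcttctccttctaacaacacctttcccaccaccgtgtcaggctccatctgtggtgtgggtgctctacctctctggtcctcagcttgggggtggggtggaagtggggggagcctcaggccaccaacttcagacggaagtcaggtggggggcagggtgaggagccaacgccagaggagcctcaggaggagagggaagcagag
Il11: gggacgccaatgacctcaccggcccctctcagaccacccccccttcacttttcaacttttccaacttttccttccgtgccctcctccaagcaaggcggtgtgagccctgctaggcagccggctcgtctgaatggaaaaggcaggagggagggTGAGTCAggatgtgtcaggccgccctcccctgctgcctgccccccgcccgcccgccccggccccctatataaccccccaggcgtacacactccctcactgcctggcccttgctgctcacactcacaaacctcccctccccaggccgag
Il6st: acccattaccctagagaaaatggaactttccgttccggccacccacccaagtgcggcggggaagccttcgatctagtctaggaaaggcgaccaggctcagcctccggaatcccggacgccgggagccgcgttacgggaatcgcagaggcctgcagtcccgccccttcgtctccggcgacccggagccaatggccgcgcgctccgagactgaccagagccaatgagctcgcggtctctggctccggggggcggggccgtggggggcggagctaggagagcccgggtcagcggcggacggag
The Il6 window held the NF-kappaB letters at positions -43 to -35 from the annotated start, the AP-1 letters at -249 to -243 and the C/EBP letters on the other strand at -128 to -121. The AP-1 letters, which read the same on both strands, were also at -228 to -222 of Lif, at -98 to -92 of this Il11 window and at positions 4 to 10 of the Osmr window. Neither the windows of Il6ra and Lifr nor a further Il11 window, farther upstream, held any of the motifs. Of all 32851 promoter windows of this length, 5.82% held the NF-kappaB letters, 7.81% the AP-1 letters, 10.8% the C/EBP letters, 8.3% the STAT letters and 13.6% the TATA letters. A match is a match of letters and shows no binding.

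Levels are scaled signals, the spot's processed signal divided by the 75th percentile of its array. The 75th percentile was 132 and 66 on the adult arrays, against 126 and 61.5 on the embryonic arrays, and 71.6% and 49.6% of spots on the adult arrays, against 48.3% and 35.7% on the embryonic arrays, were well above background. Adult array 2 had 2756 spots marked as outliers, against 185 on adult array 1 and 95 to 120 on the embryonic arrays, and those of Lif and Il6ra were among them. Fold changes are adult minus embryonic on the log2 scale, from limma fitted to all 13667 genes tested. Their median was -0.79, so a gene that moved with the bulk of the genes sits there rather than at 0. Fibroblast markers were well above background on every array (10 of 10), and so were 9 to 10 of 10 epithelial markers. In such bulk samples, fewer cells of a type and less RNA per cell cannot be told apart.

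Il6, Lif, Il11 and Clcf1 stood higher in adult spheres, and Il6st, Il6ra and Lifr lower. Of the 7 members tested, 6 passed the adjusted p threshold of 0.05 in limma, 3 higher and 3 lower in adult spheres, where 53.5% of all genes passed it, 17.5% higher and 36.1% lower. Of the genes that passed, 32.6% were thus higher in adult spheres, against 72.7% and 14.7% with arrays centred on the tested genes or on all probes, 65.8% with no filter on dim probes and 5.75% with signal asked on all 4 arrays. Since this contrast chose the members, nothing is read from that count. The 3 higher ones were the cytokine genes Il6, Il11 and Clcf1, and the 3 lower ones the receptor genes Il6st, Il6ra and Lifr. Of the 6 members with 4 usable values, 5 had groups that did not overlap, Il6, Il11 and Clcf1 with the adult arrays above (22.5% of all such genes) and Il6st and Lifr with the adult arrays below (61.6%). The receptor side of this split rested on the scaling. With centring on the median of the tested genes, 3 members passed, all of them cytokine genes (3 higher, 0 lower), and after quantile normalization 2 did (2 higher, 0 lower). With centring on all probes of the array 6 passed, 2 higher and 4 lower. With no filter on dim probes 3 passed, all higher, and 3 passed in the deposited value table, 2 higher and 1 lower. With signal asked on all 4 arrays 5 members were tested, without Il11 and Il6ra, and 4 passed, 2 higher and 2 lower. Without adult array 1 or adult array 2 no member passed the adjusted threshold in limma, although 4 and 6 of them had an unadjusted p under 0.05.

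**Figure D1:**
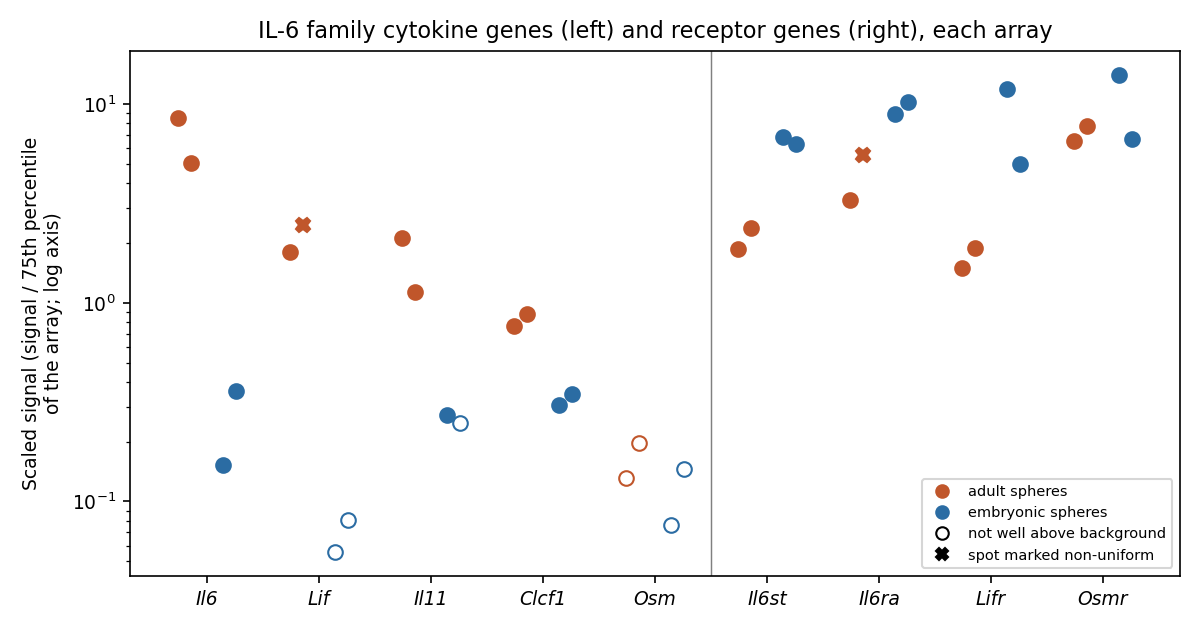
Scaled signal (log axis) of the 9 members on each array, adult arrays left of embryonic arrays within each gene, with open circles for spots not well above background and crosses for spots marked non-uniform. Adult arrays lie above embryonic arrays for Il6, Lif, Il11 and Clcf1 and below them for Il6st, Il6ra and Lifr.

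Il6 encodes a cytokine of inflammation that fibroblasts, macrophages and epithelial cells release. Its scaled signal was 8.56 and 5.07 on the adult arrays, against 0.153 and 0.361 on the embryonic arrays. All 4 arrays were well above background, and the lower adult array was far brighter than the brighter embryonic array. The embryonic levels were close to the lowest that counted as well above background, 0.112 and 0.296 on those arrays. The size of the fold is therefore uncertain. A probe counted as well above background if at least 50% of its spots were, and Il6 had 2 spots. The log2 fold change was 4.81 (SE 0.53), a fold of 28, which placed Il6 at percentile 99 of all genes tested. Over the 17 alternative settings it ran from 3.06, with normexp correction, to 5.47. The embryonic arrays differed by 1.23 on this scale, with array 1 the dimmer, and the adult arrays by 0.76.

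Lif encodes leukemia inhibitory factor. Its single spot gave a scaled signal of 1.8 and 2.47 on the adult arrays, against 0.0558 and 0.0809 on the embryonic arrays. Both embryonic spots were not well above background, and the adult array 2 spot was marked non-uniform, which took Lif out of the test although that spot too was well above background. For a gene that is dim in a whole group the fold is a lower limit, set by the lowest signal that counted as well above background. Against that limit the adult level of Lif was at least 11.5-fold higher, or at least 9.85-fold with adult array 1 alone. With outlier spots kept, an alternative chosen after seeing the data, Lif entered the fit through its adult signal alone. The size fitted there rests on the dim embryonic spots and is not given.

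Il11 encodes interleukin 11, a cytokine of stromal cells. Its scaled signal was 2.11 and 1.14 on the adult arrays, against 0.272 and 0.248 on the embryonic arrays, of which the second was not well above background. The groups stood apart, and adult array 1 was the brightest. The log2 fold change was 2.58 (SE 0.4), and 1.39 to 3.23 over the 16 alternatives that gave a value. Clcf1 moved the same way by less, with a scaled signal of 0.763 and 0.874 on the adult arrays, against 0.306 and 0.347 on the embryonic arrays. Its log2 fold change was 1.33 (SE 0.31) with little spread within either group, but it came down to 0.14 with arrays centred on the median of all probes, and the threshold was missed in 7 of 17 alternatives. Osm encodes oncostatin M, a cytokine mainly of blood cells. Its scaled signal was 0.131 and 0.198 on the adult arrays, against 0.0757 and 0.146 on the embryonic arrays, not well above background on any of them, so no fold is given.

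Il6st encodes gp130, the subunit that all these cytokines need. Its scaled signal was 1.86 and 2.39 on the adult arrays, against 6.82 and 6.28 on the embryonic arrays. The groups stood apart with small spread inside each. The log2 fold change was -1.63 (SE 0.32), which is 0.84 below the median of all genes. Under every alternative the value stayed negative, between -2.82 and -0.79, and the threshold was missed in 6 of 17, among them centring on the tested genes (-0.98, SE 0.32).

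Il6ra encodes the subunit that binds IL-6 itself. Its scaled signal was 3.28 on adult array 1 and 5.56 on adult array 2, against 8.88 and 10.3 on the embryonic arrays. The adult array 2 spot was marked non-uniform, so the fit used 3 arrays and gave a log2 fold change of -1.55 (SE 0.41), 0.75 below the median of all genes. With that spot kept the value was -1.17 (SE 0.39) and no longer passed the threshold, and with the replicate number as a block it was -1.44 (SE 0.52) and did not pass either.

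Lifr encodes the LIF receptor, shared by LIF, oncostatin M and the Clcf1 product. The probe used had a scaled signal of 1.49 and 1.88 on the adult arrays, against 12 and 5.02 on the embryonic arrays. The adult arrays were alike and the embryonic arrays far apart, with array 1 the brighter, and the groups did not overlap. The log2 fold change was -2.21 (SE 0.49), lower than that of all but 4.8% of the genes tested. The other 2 Lifr probes pointed the same way in a fit over all probes, with -1.18 (SE 0.41) and -1.47 (SE 0.5), and did not pass its threshold. Osmr encodes the receptor subunit for oncostatin M. Its scaled signal was 6.53 and 7.73 on the adult arrays, against 14.1 and 6.68 on the embryonic arrays. The embryonic arrays spanned the adult ones, and the log2 fold change of -0.45 (SE 0.45) did not pass the threshold. Its sign turned under quantile normalization (0.44), with centring on the tested genes (0.21), in the deposited value table (0.57) and without embryonic array 1 (0.09).

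**Figure D2:**
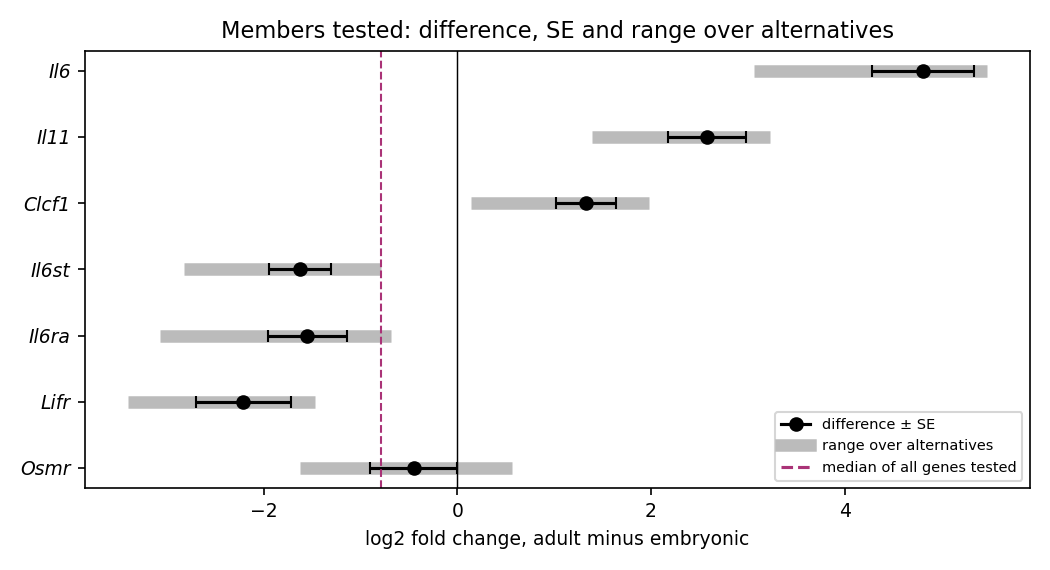
Log2 fold change, adult minus embryonic, of the 7 members tested (points, with SE), with grey bars for the range over the alternatives and a dashed line at the median of all genes tested, -0.79. The bars of Il6, Il11 and Clcf1 lie above 0 and those of Il6st, Il6ra and Lifr below 0, while the bar of Osmr crosses 0, where its sign turned under quantile normalization, centring on the tested genes, the deposited table and without embryonic array 1.

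The ratio of 2 probes on the same array does not change when a whole array is rescaled. Its size depends on the probes, so only its shift between arrays is read. Il6st itself had a log2 fold change of -1.63, which is 0.84 below the median of all genes. Each shift below includes that fall, and a gene at the median would shift upward by that 0.84. The log2 ratio of Il6 to Il6st was 2.2 and 1.08 on the adult arrays, against -5.47 and -4.12 on the embryonic arrays, a shift of 6.44. The embryonic Il6 levels behind it were close to the lowest counted as well above background. The shift was 4.21 for Il11, whose embryonic array 2 spot was dim, and 2.96 for Clcf1. For Lif and Osm, dim on both embryonic arrays, no shift is given. For Il6, Il11 and Clcf1 both adult arrays lay above both embryonic arrays. Receptor genes shifted less against Il6st. The shift was 0.47 for Il6ra, with the non-uniform spot kept, -0.58 for Lifr, and 1.18 for Osmr, whose adult arrays both lay above the embryonic ones.

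**Figure D3:**
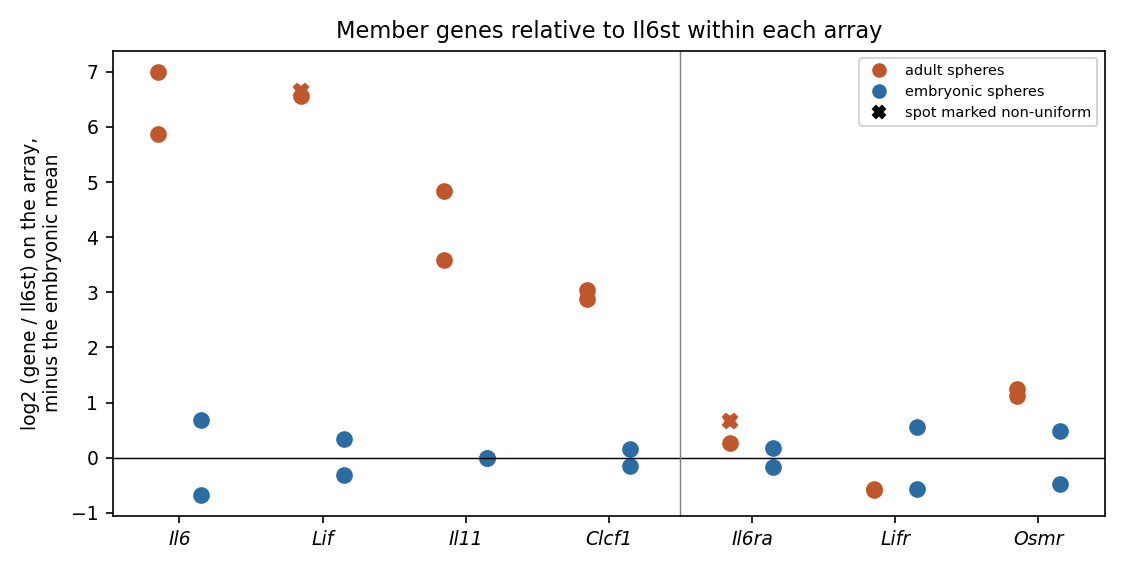
Log2 ratio to Il6st on the same array, minus the mean of the embryonic arrays, for the other members except Osm. Adult arrays are left of embryonic arrays, with crosses for spots marked non-uniform. The adult arrays lie 5.88 and 7 above the embryonic mean for Il6 and within 1.24 of it for the receptor genes. Each adult height includes the fall of Il6st itself. The embryonic spots of Lif were not well above background, so its heights are not measured shifts.

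Among 9625 other genes well above background on all 4 arrays, patterns were compared with that of Il6 by the Euclidean distance of the 4 log2 values after each gene was centred on its mean. The nearest genes included 2610318N02Rik (distance 0.88), 3300005D01Rik (0.9), the chemokine gene Ccl8 (1.08) and the olfactory receptor gene Olfr1383 (1.37), where the median distance of all genes was 5.9. Ccl8 had a scaled signal of 41.7 and 35.2 on the adult arrays, against 1.6 and 1.4 on the embryonic arrays. For 2610318N02Rik the scaled signal of the probe used was 5.32 and 7.24 on the adult arrays, against 0.17 and 0.406 on the embryonic arrays, but its log2 fold change of 4.56 came down to 0.75 (SE 0.42) when the gene's probes were averaged. On these probes the groups stood apart in both genes, and embryonic array 1 was the dimmer for 2610318N02Rik, as it was for Il6. Both genes were chosen for their nearness to Il6, so this likeness is no separate result.

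Of the 10 other gp130 cytokine and receptor genes, 8 were tested, 1 was higher and 1, Ctf1, lower in adult spheres. Among all genes tested 17.5% were higher and 36.1% lower. The list had a median of -0.37, against -0.79 for all genes tested. Ctf1, the gene of cardiotrophin 1, had a scaled signal of 0.543 and 0.231 on the adult arrays, of which 1 was well above background, against 1.56 and 0.843 on the embryonic arrays. Its log2 fold change was -1.7 (SE 0.55, adjusted p = 0.0456 in limma), and the call was lost with centring on the tested genes (adjusted p = 0.194). The 6 others did not pass the test. The difference of the cytokine gene Cntf was -1.21 (log2, SE 0.41, adjusted p = 0.052 in limma). The log2 fold change was -0.58 (SE 0.31) for Il27 and -0.26 (SE 0.34) for Ebi3, the 2 chains of interleukin 27. Il11ra1, the receptor gene for interleukin 11, had -0.48 (SE 0.36), with a scaled signal of 17 and 14.9 on the adult arrays, against 27.6 and 18 on the embryonic arrays. Cntfr, the CNTF receptor gene, had 0.31 (SE 0.49). Il31, whose cytokine uses the Osmr product without gp130, had a scaled signal of 0.42 and 0.262 on the adult arrays, against 0.0269 and 0.151 on the embryonic arrays, both dim, which puts the adult level at least 1.82-fold higher (adjusted p = 0.0566 in limma, not passed). The signs of Il27, Ebi3, Il11ra1 and Cntfr turned under at least 1 scaling. Il27ra and Il31ra did not pass the filter on dim probes.

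Genes upstream and downstream of the receptors had a median difference close to that of all genes. Over 8 pathway lists, 82 of 101 genes were tested, 40 passed (48.8%), 10 higher and 30 lower in adult spheres, and the median was -0.85, against 53.5% and -0.79 for all genes. Centred on the median of the tested genes, 18 passed, 10 higher and 8 lower. With centring on all probes of the array 67 passed, 6 higher and 61 lower, with no filter on dim probes 15 did, 8 higher and 7 lower, with signal asked on all 4 arrays 38 did, 5 higher and 33 lower, and 33 did in the deposited value table, 12 higher and 21 lower. Without adult array 1 or 2 none passed in limma, though 31 and 31 had an unadjusted p under 0.05.

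**Figure D4:**
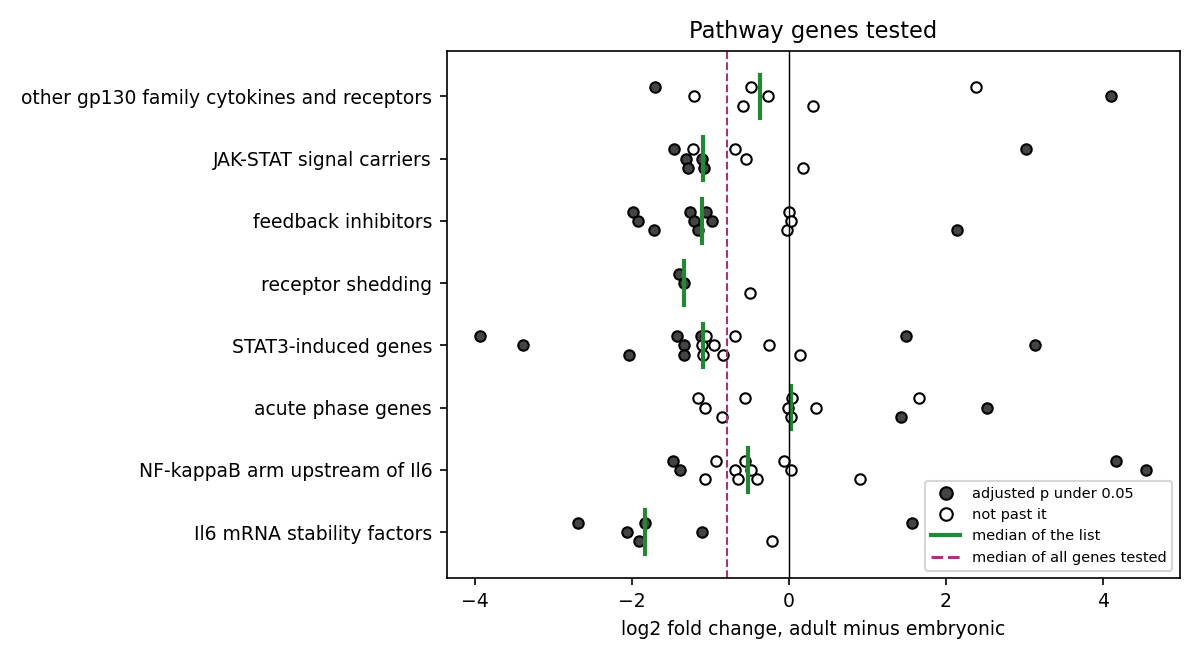
Log2 fold change, adult minus embryonic, of each pathway gene tested, filled where the adjusted p was under 0.05, with the median of each list (bar) and of all genes tested (dashed line at -0.79). Gab2, Timp1, Il1a and Rel stand out to the right, and Fos and Pim3 to the left. Gab2, Il1a and Rel were dim on both embryonic arrays and entered the test through their adult signal alone. The positions of genes dim on both arrays of a group are not measured sizes.

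Of 12 signal carriers 10 were tested, 1 rose and 5 fell in adult spheres, with a median of -1.09. Among all genes tested 17.5% rose and 36.1% fell, with a median of -0.79. With centring on the tested genes 1 carrier rose and 0 fell. Stat3 had a scaled signal of 5.73 and 7.36 on the adult arrays, against 11.3 and 9.68 on the embryonic arrays, a difference of -0.69 (log2, SE 0.32, adjusted p = 0.118 in limma) whose sign turned after quantile normalization (0.18) and in the deposited table (0.23). Falls were measured in Grb2, an adaptor of the Ras branch (-1.46, SE 0.32), Ptpn11, the phosphatase SHP2 (-1.31, SE 0.31), and Stat5b (-1.29, SE 0.3), with adjusted p of 0.0176, 0.0199 and 0.0203 in limma. All 3 calls were lost with centring on the tested genes. Grb2 also came down to -0.5 (SE 0.3) and lost its call when its probes were averaged. The docking protein gene Gab2 rose. Its scaled signal was 1.12 and 1.37 on the adult arrays, against 0.109 and 0.213 on the embryonic arrays, both dim, which makes it at least 6.78-fold higher (adjusted p = 0.00878 in limma). It entered the test through its adult signal alone, and with signal asked on all 4 arrays 0 carriers rose and 6 fell of 9. Of the receptor-shedding genes 3 of 4 were tested and 2 fell, Rhbdf1, a partner of the sheddase ADAM17 (-1.4, SE 0.35), and the sheddase gene Adam10 (-1.34, SE 0.34), with adjusted p of 0.0229 and 0.0236 in limma. The list's median was -1.34, and both calls were lost with centring on the tested genes and kept with centring on all probes.

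Of the 13 genes listed as feedback inhibitors 12 were tested, 8 fell, Socs3 among them, and Socs2 rose in adult spheres. Beside the Socs genes and Cish the list holds Pias and phosphatase genes. Its counts are thus of inhibitors in general, and not of feedback genes alone. The median was -1.11, where that of all genes was -0.79 and 36.1% of all genes fell. With centring on the tested genes 2 fell and 1 rose, with centring on all probes 11 fell and 0 rose, and with the replicate number as a block 6 fell and 1 rose. Socs3, the main brake on gp130 and itself induced by STAT3, had a scaled signal of 2.08 and 1.6 on the adult arrays, against 4.87 and 3.92 on the embryonic arrays. The groups did not overlap, and the log2 fold change was -1.26 (SE 0.33, adjusted p = 0.027 in limma). That call was lost with centring on the tested genes (-0.6, adjusted p = 0.191). Larger falls were those of Socs7 (-1.99, SE 0.34), Cish (-1.92, SE 0.33) and Pias1, an inhibitor of STAT proteins (-1.72, SE 0.3), with adjusted p of 0.0113, 0.0114 and 0.0116 in limma. With centring on the tested genes Socs7 and Cish kept their calls, and Pias1 lost its call (-1.07, adjusted p = 0.0517 in limma).

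Smaller falls were seen in Socs4 (-1.16), Socs6 (-1.06) and the phosphatase genes Ptpn6 (-1.21) and Ptpn2 (-0.98), with adjusted p from 0.0338 to 0.047 in limma. These 4 calls were lost with centring on the tested genes. Ptpn2 turned sign when its probes were averaged (0.36) and lost its call in 12 of 17 alternatives. Socs1 (0.023), Socs5 (0.0075) and Ptpn1 (-0.019) had log2 fold changes near 0 and did not pass the test. Their signs turned under several scalings. Socs2, an inhibitor of growth hormone signalling, rose. It had a scaled signal of 2.1 and 1.95 on the adult arrays, against 0.483 and 0.437 on the embryonic arrays. Its log2 fold change was 2.14 (SE 0.3, adjusted p = 0.00885 in limma). With the marked spots kept adult array 2 read 2.99, and the log2 fold change was 2.45. It came down to 1.25 when its probes were averaged, to 1.23 with normexp correction and to 0.95 (adjusted p = 0.084) with centring on all probes, where the call was lost.

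Of 19 genes that STAT3 induces 17 were tested, 7 fell and 2 rose in adult spheres, with a median of -1.09. The share that passed, 52.9%, is near the 53.5% of all genes. Timp1, a metalloprotease inhibitor gene, had a scaled signal of 582 and 500 on the adult arrays, against 72.2 and 52.5 on the embryonic arrays, and rose by 3.13 on the log2 scale (SE 0.33, adjusted p = 0.00734 in limma). Il4ra, the interleukin 4 receptor gene, rose by 1.49 (SE 0.35, adjusted p = 0.0201 in limma), a call lost in 5 of 17 alternatives, with 0.3 (adjusted p = 0.588) under centring on all probes. In the other direction Fos, an immediate early transcription factor gene, had 0.522 and 0.511 on the adult arrays, against 4.37 and 14.1 on the embryonic arrays, and fell by 3.93 (SE 0.59, adjusted p = 0.00933 in limma). The kinase gene Pim3 fell by 3.38 (SE 0.39, adjusted p = 0.00744 in limma), with 1 of 2 adult arrays well above background, and the cyclin gene Ccnd1 fell by 2.04 (SE 0.32, adjusted p = 0.00964). With centring on the tested genes 2 rose and 3 fell.

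Acute phase genes, which IL-6 is known to induce in liver cells, differed widely between the 2 embryonic arrays. Of 18, 11 were tested, 2 rose and none fell in adult spheres, with a median of 0.031. Among all genes tested 17.5% rose and 36.1% fell, with a median of -0.79. The serine protease inhibitor gene Serpina3n had a scaled signal of 17.5 and 15.9 on the adult arrays, against 4.19 and 2.02 on the embryonic arrays, and rose by 2.52 (SE 0.44, adjusted p = 0.0115 in limma). Lrg1 rose by 1.43 (SE 0.42, adjusted p = 0.0361 in limma), a call lost in 6 of 16 alternatives, with 0.25 (adjusted p = 0.646) under centring on all probes. Its scaled signal was 1.45 and 0.724 on the adult arrays, against 0.375 and 0.384 on the embryonic arrays, the second dim. Lrg1 thus entered the test through its adult signal alone. With signal asked on all 4 arrays 1 gene of the list rose and 0 fell of 8. The next 4 genes were named after their values were seen. Saa3, a serum amyloid gene, had 102 and 115 on the adult arrays, against 1130 and 51.7 on the embryonic arrays. Embryonic array 1 was the brightest array and embryonic array 2 the dimmest. Saa1 (48.9 and 40.7 on the adult arrays, 342 and 12.7 on the embryonic arrays) and the iron-binding gene Lcn2 (332 and 189, against 556 and 69.8) had the same order, and Hp, the haptoglobin gene, had 8.27 and 8.87 on the adult arrays, against 37.2 and 8.71 on the embryonic arrays. Saa1 and Saa2 are near-identical copies whose probes may share signal.

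Of the 11 acute phase genes, 1 differed over 2-fold between the adult arrays, while 10 were over 2-fold brighter on embryonic array 1 than on embryonic array 2, with a median log2 difference of 2.67. Over all genes tested, 9.18% differed over 2-fold in the adult pair and 20.3% in the embryonic pair. Among the receptors, Lifr (1.25) and Osmr (1.08) were also over 2-fold brighter on embryonic array 1, while Il6st (0.12) and Il6ra (-0.22) were not. Without embryonic array 1, Saa1 had a log2 fold change of 1.82 (adjusted p = 0.00308 in limma) and Lcn2 of 1.84 (adjusted p = 0.00376), both called higher in adult spheres, against -0.56 (adjusted p = 0.752) and 0.35 (adjusted p = 0.77) with it. Saa3 turned to 1.07 (adjusted p = 0.0576). Without embryonic array 2, Saa1 had -2.94 (adjusted p = 2.11e-05 in limma), Saa3 -3.38 (adjusted p = 2.95e-06), Hp -2.12 (adjusted p = 0.000872) and Lcn2 -1.15 (adjusted p = 0.0504). Over the list 7 rose and 0 fell without embryonic array 1, and 2 rose and 6 fell without embryonic array 2. In both fits the lone embryonic array is assumed to vary like the adult pair, so these p-values hold nothing of the embryonic spread.

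**Figure D5:**
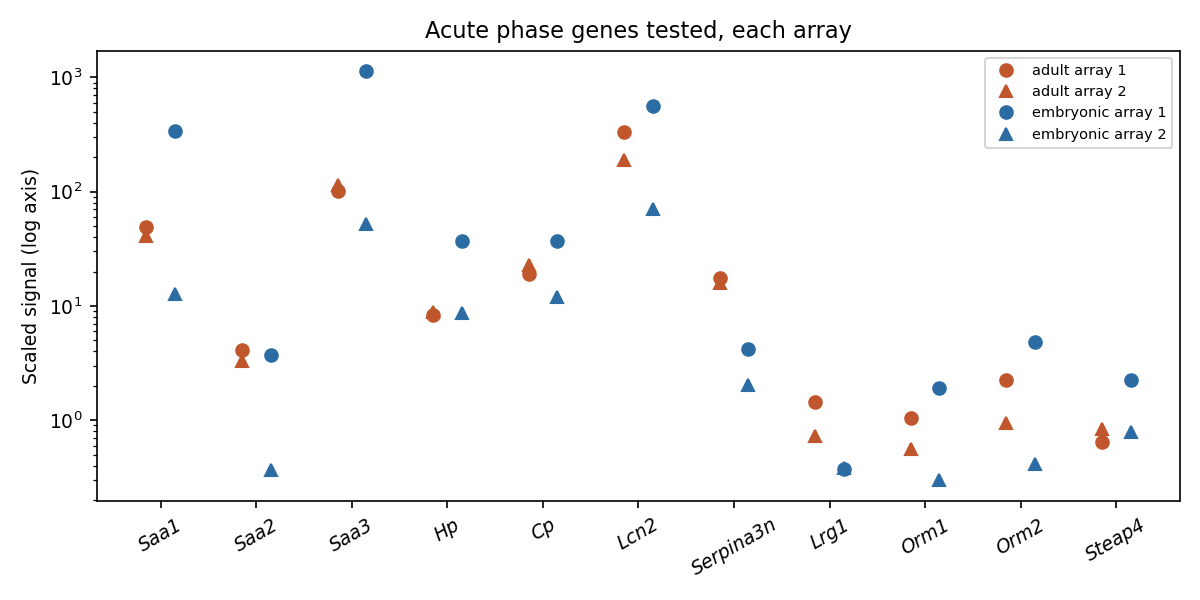
Scaled signal (log axis) of the 11 acute phase genes tested, circles for array 1 and triangles for array 2 of each group, adult left of embryonic. Embryonic array 1 lies over 2-fold above embryonic array 2 for 10 of the 11 genes, Lrg1 being the exception, while the adult arrays lie close together for most.

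Of 17 genes of the NF-kappaB arm upstream of Il6, 14 were tested, 2 rose and 2 fell, with a median of -0.52. Among all genes tested 17.5% rose and 36.1% fell, with a median of -0.79. The 2 that rose, Rel and Il1a, entered the test through their adult signal alone, and with signal asked on all 4 arrays 0 rose and 4 fell of 11. Rel encodes the NF-kappaB subunit c-Rel. It had a scaled signal of 1.18 and 0.721 on the adult arrays, against 0.0237 and 0.0658 on the embryonic arrays, both dim, which puts the adult level at least 5.06-fold higher (adjusted p = 0.00771 in limma). Il1a, a cytokine gene that drives NF-kappaB, had 0.831 and 1.35 on the adult arrays, against 0.0247 and 0.142 on the embryonic arrays, also dim, and was at least 5.8-fold higher (adjusted p = 0.0147 in limma). Rela, for the subunit p65, fell by 1.38 (SE 0.31, adjusted p = 0.0188 in limma) and Tnfaip3, a brake on NF-kappaB, fell by 1.48 (SE 0.36, adjusted p = 0.0217 in limma), and both calls were lost with centring on the tested genes.

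Of 8 factors that act on the stability of the Il6 message 7 were tested, 5 fell and 1 rose in adult spheres, with a median of -1.83, where 36.1% of all genes fell. With centring on the tested genes 3 fell and 1 rose, with centring on all probes 6 fell and 0 rose, and after quantile normalization 2 fell and 0 rose. Zfp36, for tristetraprolin, which speeds the decay of cytokine messages, had a scaled signal of 0.0994 and 0.0638 on the adult arrays, both dim, against 0.336 and 0.785 on the embryonic arrays, and was at least 4.06-fold lower (adjusted p = 0.0131 in limma). It entered the test through its embryonic signal alone, and the call was lost with normexp correction (-0.55, adjusted p = 0.204). Its relative Zfp36l1 had 3.55 and 3.4 on the adult arrays, against 15 and 14 on the embryonic arrays, and fell by 2.06 (SE 0.3, adjusted p = 0.00912 in limma). Rc3h1, for the message-decay protein roquin 1, fell by 1.91 (SE 0.38, adjusted p = 0.0141 in limma), and its sign turned when its probes were averaged (0.083). Zc3h12a, for the ribonuclease regnase 1, had 1.6 and 0.781 on the adult arrays, against 0.508 and 0.277 on the embryonic arrays, the second dim. The gene rose by 1.57 (SE 0.5, adjusted p = 0.0451 in limma). It entered the test through its adult signal alone, and with signal asked on all 4 arrays 0 rose and 4 fell of 5. Its call was lost in 9 of 16 alternatives.

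Markers of other cell types are given as summed scaled signals, which a few bright probes can carry. Counts of markers that rose or fell stand beside 17.5% and 36.1% of all genes tested, and nothing is read from them. The summed scaled signal of the 10 macrophage and myeloid markers was 81.4 and 116 on the adult arrays, against 123 and 109 on the embryonic arrays, mostly from Itgam. Of 8 tested, 1 rose and 3 fell, the falls being those of Lyz2 (-2.31), Cd68 (-1.13) and Csf1r (-1.03), with adjusted p from 0.0129 to 0.0372 in limma. Fcgr1, dim on both embryonic arrays, was at least 3.47-fold higher (adjusted p = 0.011 in limma), and Adgre1 (-0.97), Tyrobp (-0.7), Itgam (-0.015) and Cd14 (0.34) did not pass. The summed signal of 10 fibroblast markers was 433 and 429 on the adult arrays, against 807 and 465 on the embryonic arrays, where 1 rose and 2 fell of 10 tested. That of 10 epithelial markers was 209 and 124 on the adult arrays, against 429 and 656 on the embryonic arrays, where 1 rose and 6 fell of 9 tested.

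Endothelial markers had a summed signal of 16.8 and 19.4 on the adult arrays, against 16.3 and 26.5 on the embryonic arrays, and 3 of 6 tested rose and none fell, all 3 dim on both embryonic arrays. The 8 T lineage markers summed to 7.29 and 7.3 on the adult arrays, against 9.76 and 11.7 on the embryonic arrays, with Cd3d not well above background on any array, and 1 of 4 tested rose. The 4 B lineage markers summed to 0.82 and 1.06 on the adult arrays, against 0.271 and 0.303 on the embryonic arrays, with Ms4a1 not well above background on any, and the 1 gene tested rose. The neutrophil markers summed to 50.6 and 79.6 on the adult arrays, against 146 and 160 on the embryonic arrays, almost all from Csf3r, and 1 of 3 tested fell. The mast cell and adipocyte markers summed to 12 and 9.99 on the adult arrays, against 37.8 and 13.7 on the embryonic arrays, and 2 of 4 tested rose. Of all genes tested, 17.5% rose and 36.1% fell, and nothing is read from these small counts. The part of these cells in the cytokine values was not tested.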

How the data were processed

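The deposited scanner files hold intensity values per spot, extracted with Agilent Feature Extraction 10.7.3.1 per the file headers, whose background subtraction and spatial detrending acted on single arrays. No step between arrays had been applied. Per the labels' protocols the input was 25 ng of RNA and the dye Cy3. The 4 arrays share 1 slide, on which position and group cannot be told apart. The processing of the deposited value table, linear intensity, is stated nowhere in these sources, and its centring and scaling are unknown. It served as an alternative.

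Processed signals were divided by the array's 75th percentile over all non-control spots and taken to log2. Control and outlier-marked spots were left out, and spots of a probe averaged. Probes were named through RefSeq accessions without versions (28026 of 55681, 50.3%). A probe was tested if both arrays of a group, adult or embryonic, were well above background, and the brightest stood for its gene, probes measured on all 4 arrays first. Adult minus embryonic was fitted with limma 3.58.1 in R 4.3.3 (lmFit, eBayes, no covariates), with Benjamini-Hochberg adjustment over 13667 genes, and the fit was tested on simulated data. A gene dim on both arrays of a group has a bounded fold, against the higher of its own signal and the lowest signal well above background.

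The members and lists were chosen with earlier results of these data known. Named were all members, all tested genes of the other-gp130 and feedback lists, up to 3 called genes per direction and list, and the 5 genes nearest to Il6, apart from genes not reported here. Stat3, Saa1, Saa3, Lcn2, Hp and the marker genes were named outside this rule. The files hold no mean spot signal, so the normexp alternative (offset 50) used median signals. Other alternatives were quantile normalization, 2 centrings, the value table, 2 filters, probe means, 2 eBayes priors, a replicate block and leaving out each array. Keeping outlier spots, and a percentile without them, were added after seeing the data. Same-numbered arrays deviated together with a correlation of 0.07, over 13375 genes, so the numbers were not taken to pair samples. They were alike in their 75th percentile, 132 and 126 for number 1 and 66 and 61.5 for number 2. The correlation does not register such overall brightness, so shared handling by number was not tested. The NF-kappaB letters searched were shortened by 1 base after a longer form had been run, which matched the Il6 window alone among the members and a smaller share of all windows.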

Additional observations from a re-analysis of the deposited data

How the results depend on the processing

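Precision is limited by 2 arrays a group and, for dim genes, by signal over background. Of 13667 genes tested 7315 passed, against 3346 with normexp correction, 4856 after quantile normalization, 11527 with arrays centred on the median of all probes, 3817 centred on the tested genes and 2719 with no filter on dim probes. The share of calls higher in adult spheres was 32.6%, against 14.7%, 72.7% and 65.8% under the last 3 of these and 5.75% with signal asked on all 4 arrays. Leaving out 1 array gave 0 to 7543 calls, 0 without either adult array, where limma gave an unadjusted p under 0.05 for 6435 and 5528. Of the members 6 passed, against 2 after quantile normalization and 3 each with centring on the tested genes, in the deposited table and with no filter, and 0 to 6 with an array left out. Of the pathway genes 40 passed, against 26 with normexp, 24 after quantile normalization, 67 and 18 under the 2 centrings, 15 with no filter, and 0 to 45 with an array left out. With the replicate block 7027 genes, 5 members (Il6ra, -1.44, was lost) and 39 pathway genes passed. The numbers are not taken to pair the arrays.

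Il6, Il11 and Clcf1 stayed positive, and Il6st, Il6ra and Lifr negative, under every alternative that gave a value. Signs turned after quantile normalization for Osmr (0.44), Cntfr (-0.64), Il11ra1 (0.35), Stat3 (0.18), Socs1 (-0.32), Socs5 (-0.53), Ptpn1 (0.085) and Saa1 (0.49). They turned with centring on the tested genes for Osmr (0.21), Il27 (0.072), Ebi3 (0.4), Il11ra1 (0.17), Ptpn1 (0.64) and Saa1 (0.096), and with centring on all probes for Cntfr (-0.88), Socs1 (-1.16), Socs5 (-1.18) and Lcn2 (-0.84). In the deposited table they turned for Osmr (0.57), Cntfr (-0.47), Il11ra1 (0.38), Stat3 (0.23), Socs1 (-0.36), Socs5 (-0.14), Ptpn1 (0.0041) and Saa1 (0.51), with normexp for Cntfr (-0.0073) and Socs1 (-0.025), with averaged probes for Ptpn2 (0.36) and Rc3h1 (0.083), and with the percentile over unmarked spots for Ptpn1 (0.13). With 1 array left out the values turned sign within -0.99 to 0.09 for Osmr, -0.52 to 0.0019 for Ebi3, -0.35 to 0.96 for Cntfr, -0.37 to 0.42 for Socs1, -0.27 to 0.28 for Socs5, -0.27 to 0.24 for Ptpn1, -2.94 to 1.82 for Saa1, -3.38 to 1.07 for Saa3 and -1.15 to 1.84 for Lcn2. The cause was not tested.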
